A study of Homo sapiens with 29 samples.

Results

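Amino acid transporters were followed across a course of BRAF inhibition in WM239A cells, a human metastatic melanoma line. The members are the genes whose symbol belongs to the solute carrier families SLC1, SLC6, SLC7, SLC36, SLC38 or SLC43, with the heavy chains SLC3A1 and SLC3A2. This rule, which uses no measured value, took 59 of 60675 genes in the deposited count table. Polyadenylated RNA was sequenced in 29 libraries that form 10 groups. Every group carries the WM239A background, and all but the vector group overexpress BRAF-V600E, the mutant kinase that drives MAPK signalling. The V600E cells without drug (3 libraries) have the vector cells without drug (3 libraries) as their reference. V600E cells were also taken after 20 hours and after 7 days in 500 nM LGX818 (encorafenib, a BRAF kinase inhibitor), the second of which is called week 1 (3 libraries each). An intermittent arm then went through 7 days in DMSO (off drug, week 2), 7 days in LGX818 (on drug, week 3) and 7 days in DMSO again (off drug, week 4), with 3 libraries each. A continuous arm stayed in LGX818 for 14, 21 and 28 days (weeks 2, 3 and 4, with 3, 3 and 2 libraries). The promoter of the BRAF-V600E construct, whether the line is 1 clone, and whether libraries of a group come from separate cultures are not given in the labels, so p-values measure the spread between these libraries, which may be technical. Since no week of the course has untreated cells labelled as its own, contrasts of any week with untreated cells also include time in culture.

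Amino acid transporters carry amino acids across the plasma membrane and the membranes of lysosomes and vesicles, by exchange, by cotransport with sodium or protons, or by facilitated passage. Light chains of the SLC7 family pair with the heavy chain SLC3A2 (4F2hc, CD98) or SLC3A1: SLC7A5 (LAT1) and SLC7A8 (LAT2) exchange large neutral amino acids such as leucine, and SLC7A11 (xCT) takes up cystine in exchange for glutamate. SLC1A5 (ASCT2), SLC38A1 and SLC38A2 carry glutamine, whose efflux can drive leucine uptake through SLC7A5, and amino acids inside the cell feed mTORC1, the kinase complex that promotes growth. Many of these genes are known targets of ATF4, the transcription factor of the amino acid response, which binds C/EBP-ATF elements together with C/EBP proteins. In melanoma, SLC7A5 and SLC1A5 are known for supplying leucine and glutamine, and SLC7A11 for supplying the cystine used to make glutathione.

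Libraries held 22934039 to 35804978 counts, and levels are given as CPM, counts scaled to a common library total after TMM adjustment. BRAF, the overexpressed gene, had 889 to 902 CPM in V600E cells, against 37.6 to 43.2 CPM in vector cells. It had 3168 to 3288 CPM off drug at week 2 and 3332 to 3495 CPM off drug at week 4. Continuous drug gave 1030 to 1126 CPM at week 2 and 989 to 1045 CPM at week 4. Contrasts of off-drug cells with untreated or continuous cells therefore also differ in BRAF level, whose part was not tested. The week 3 intermittent columns are called off drug in the table but on drug in the sample labels, and are taken here as on drug. A library each of week 2 off drug, week 3 on drug, week 2 continuous and week 3 continuous stood apart from the other two of its group, and results that rest on them are given without them too. The summed level of 7 melanocyte markers, which check the labelled cell type, was 8073 to 8228 CPM at 20 hours and 821 to 887 CPM at week 1, against 2367 to 2482 CPM without drug. A summed fibroblast marker list was 27.9 to 30.5 CPM off drug at week 4, against 2228 to 2469 CPM under continuous drug at week 4. Under continuous drug most of this sum was the collagen gene COL1A1, given further on. Leukocyte, endothelial and epithelial lists stayed at or below 11.6 CPM in every library. The mitochondrial share of counts was highest at 20 hours (19.5% ± 1.62, SD, n = 3) and lowest at week 2 under continuous drug (10.2% ± 1.61, SD, n = 3). How far cell state or RNA quality takes part in the results was not tested.

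Promoters from RefSeq (GRCh38.p14, 250 bases before to 50 after a start) covered 44 of the 59 members with 66 promoters. They were searched on both strands for 3 motifs because many members changed, in both directions, at week 1 and at 20 hours. As the search followed these calls, the calls of motif holders below are a description and not a test. The C/EBP-ATF element TGATGNAA stood in 6 of 66 member promoters (9.09%), against 3.62% of all 35116 promoters. These 6 genes, SLC1A3, SLC1A4, SLC1A5, SLC38A1, SLC3A2 and SLC7A1, all rose at week 1, where 17 of the 28 tested members with a promoter, these 6 included, rose. At 20 hours 2 of the 6 rose and 4 fell, against 13 that rose and 8 that fell among those 28. A gene can have several promoters, so a window, for this or another motif, need not lie at its outermost start. The SLC1A5 element lies in a promoter within the gene, and the SLC1A3 element upstream of the gene start given further on. The windows below, on the strand of the gene and 5′ to 3′, carry the element in capitals, reversed in SLC1A4 and SLC3A2.
SLC1A3, chr5:36596357-36596386, plus strand: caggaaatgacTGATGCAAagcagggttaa
SLC1A4, chr2:64989381-64989410, plus strand: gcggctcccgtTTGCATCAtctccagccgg
SLC1A5, chr19:46784893-46784922, minus strand: gaggaagtggcTGATGCAAgctgtccaggg
SLC38A1, chr12:46266502-46266531, minus strand: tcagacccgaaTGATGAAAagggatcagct
SLC3A2, chr11:62881719-62881748, plus strand: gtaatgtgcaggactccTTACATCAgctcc
SLC7A1, chr13:29595663-29595692, minus strand: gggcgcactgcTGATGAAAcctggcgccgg

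The E-box CACGTG, a motif of the MITF and TFE families and of MYC, stood in 10 of 66 member promoters (15.2%), against 7.26% of all promoters. Of the 9 tested members that hold it, 6 rose and 2 fell at 20 hours, against 13 that rose and 8 that fell among the 28 tested members with a promoter. The first 3 windows are from members that rose at 20 hours and the last 2 from members that fell, with the E-box in capitals.
SLC7A5, chr16:87869620-87869649, minus strand: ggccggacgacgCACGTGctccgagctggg
SLC7A8, chr14:23154505-23154534, minus strand: cacaattagaaaCACGTGctcagttccttc
SLC38A7, chr16:58684739-58684768, minus strand: gtgatgcatgctCACGTGtctccgcagccg
SLC1A5, chr19:46787326-46787355, minus strand: ggcgggagtggtCACGTGgacaggacgggg
SLC43A1, chr11:57515797-57515826, minus strand: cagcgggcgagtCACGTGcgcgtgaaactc

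An antioxidant response element, TGACNNNGC, stood in 7 of 66 member promoters (10.6%), against 13.3% of all promoters. SLC7A11, SLC7A2, SLC43A3, SLC6A6 and SLC6A15 had no promoter in this set and were not searched for any of the 3 motifs. All 7 members that hold the antioxidant element were tested, of which 6 rose and 1 fell at week 1, and 3 rose and 3 fell at 20 hours. Among the 28 tested members with a promoter, these 7 included, 17 rose and 3 fell at week 1, and 13 rose and 8 fell at 20 hours. Of the 7 holders, 4 hold the C/EBP-ATF element too. No match of a motif shared a base with a match of another in these promoters. A match is a run of letters and does not show that a factor binds there.

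Member levels spanned a wide range: 27 reached a group mean of 5 CPM in at least 1 group, 22 were low, and 10 were almost without counts (highest group mean under 0.1 CPM). The almost silent members were SLC36A2, SLC36A3, SLC6A14, SLC6A18, SLC6A19, SLC6A3, SLC6A5, SLC6A7, SLC1A6 and SLC7A13. Of these, SLC36A3, SLC6A18, SLC6A5 and SLC7A13 had 0 counts in every library. Besides these 10, SLC38A11, SLC38A5, SLC38A8, SLC6A11, SLC6A2, SLC6A20, SLC6A4, SLC1A2, SLC7A3, SLC7A10 and SLC7A9 had too few counts to be tested. Levels of different genes are compared per kilobase of exon. Without drug, V600E cells held SLC7A5 highest, at 91.9 CPM per kilobase, before SLC1A5 at 74.9 and SLC3A2 at 41.4 CPM per kilobase. SLC43A3, SLC7A8 and SLC7A1 followed at 31.9, 29.4 and 28.7 CPM per kilobase. After 20 hours of drug the order on this scale began with SLC7A5 at 303, SLC7A8 at 110.3 and SLC3A2 at 84.2 CPM per kilobase. At week 1 it began with SLC7A5 at 193, SLC1A5 at 182 and SLC3A2 at 97.3 CPM per kilobase, and SLC7A11 reached 57.7 CPM per kilobase. The summed level of all 59 members was 3863 to 4214 CPM at 20 hours and 4183 to 4474 CPM at week 1, against 2429.7 to 2443 CPM without drug. It was 2603 to 2801 CPM off drug at week 4, against 2263 to 2289 CPM under continuous drug at week 4.

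**Figure D1:**
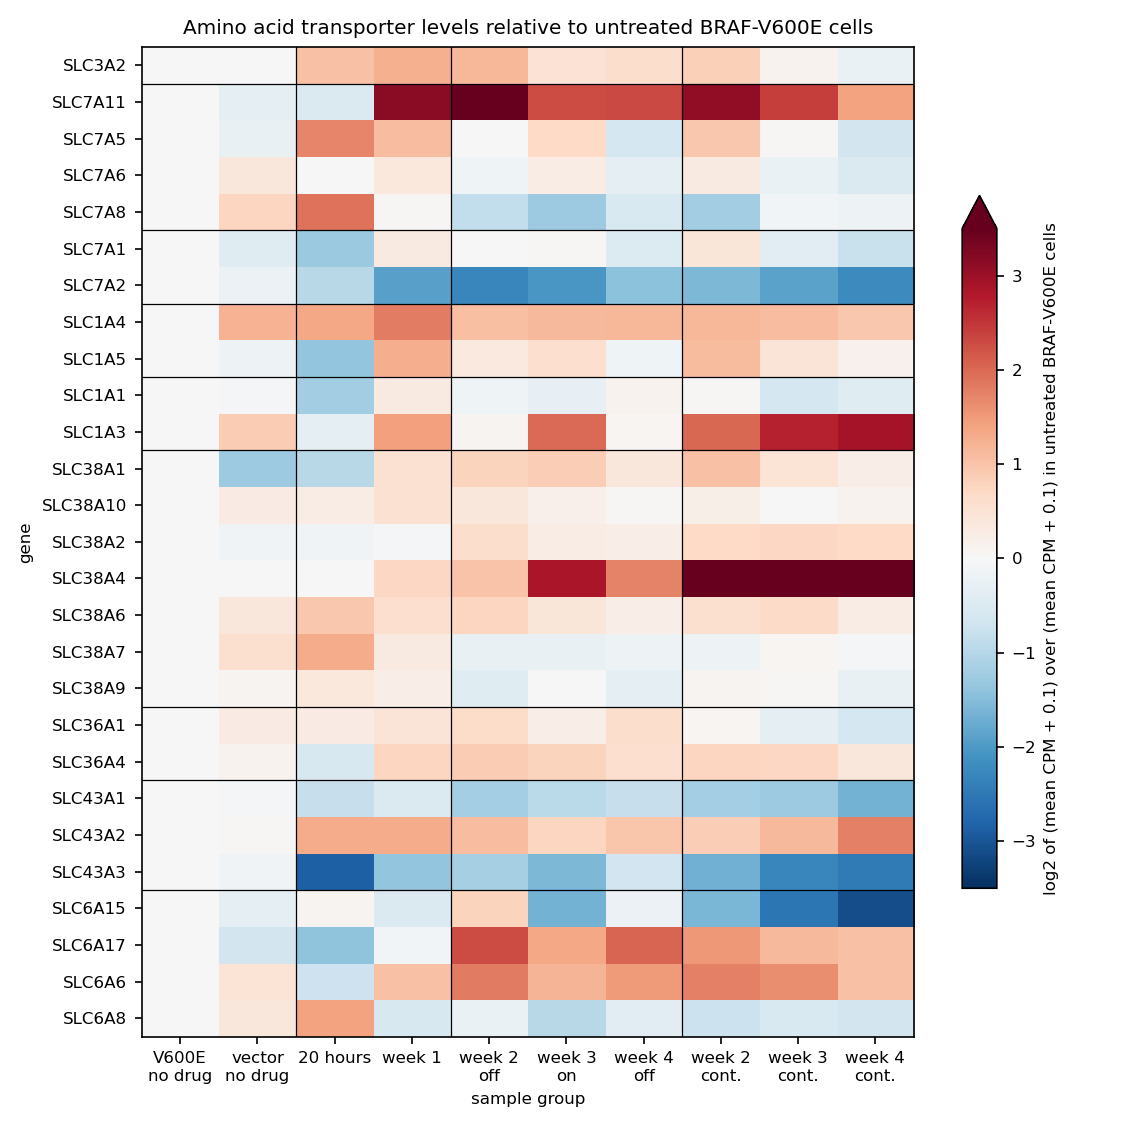
Mean level of the 27 transporters that reach 5 CPM in at least 1 group, as the log2 of (mean CPM + 0.1) over the same in untreated V600E cells; columns are the 10 sample groups, rows are genes grouped by role, and the colour stops at 3.5. SLC7A11 is red from week 1 on, SLC38A4 and SLC1A3 redden under continuous drug, and SLC6A15, SLC43A3 and SLC7A2 are blue there.

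Transporters changed in both directions in each of the 8 main comparisons, and at week 1 more of them rose than fell. Of the 59 members 38 passed the filter on low counts and were tested among 20494 genes, and a call is an edgeR adjusted p under 0.05. At week 1, 20 of the 38 rose and 6 fell against untreated V600E cells, beside 27.5% and 26.7% of all tested genes. At 20 hours 15 rose and 12 fell, beside 28.4% and 25.2% of all genes. After 4 weeks of continuous drug 18 were higher and 11 lower than in untreated V600E cells, beside 29.3% and 26%. These 3 contrasts share the untreated V600E libraries, so their counts are not independent of each other. Overexpression of BRAF-V600E itself went with 5 higher and 10 lower members, beside 7.04% and 9.92% of all genes, and 8 were higher when only these 6 libraries were fitted.

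Between the schedules, 10 members were higher and 11 lower off drug than under continuous drug at week 2, beside 27.3% and 27.9% of all genes. At week 4 off drug, 14 were higher and 10 lower than under continuous drug, beside 26.1% and 25.1%. Return to drug at week 3 gave 8 higher and 12 lower members than off drug at week 2, beside 27.8% and 28.5%. Week 3 on drug in the intermittent arm had 9 higher and 10 lower members than week 3 of continuous drug, beside 14% and 14.3%. The median log2 change of the 38 members was 0.34 at week 1 and 0.27 at week 4 of continuous drug, against 0 and 0.029 over all tested genes. In the other 6 contrasts the members' median lay between -0.09 and 0.096. Setting members with 0 counts in a group at their bound left these medians where they were. SLC1A3 and SLC6A8 were called in all 8 contrasts, but the week 4 call of SLC6A8 was lost without either continuous library (edgeR adjusted p = 0.0841 and 0.127), and the 20 hour call of SLC1A3 without the third 20 hour library.

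**Figure D2:**
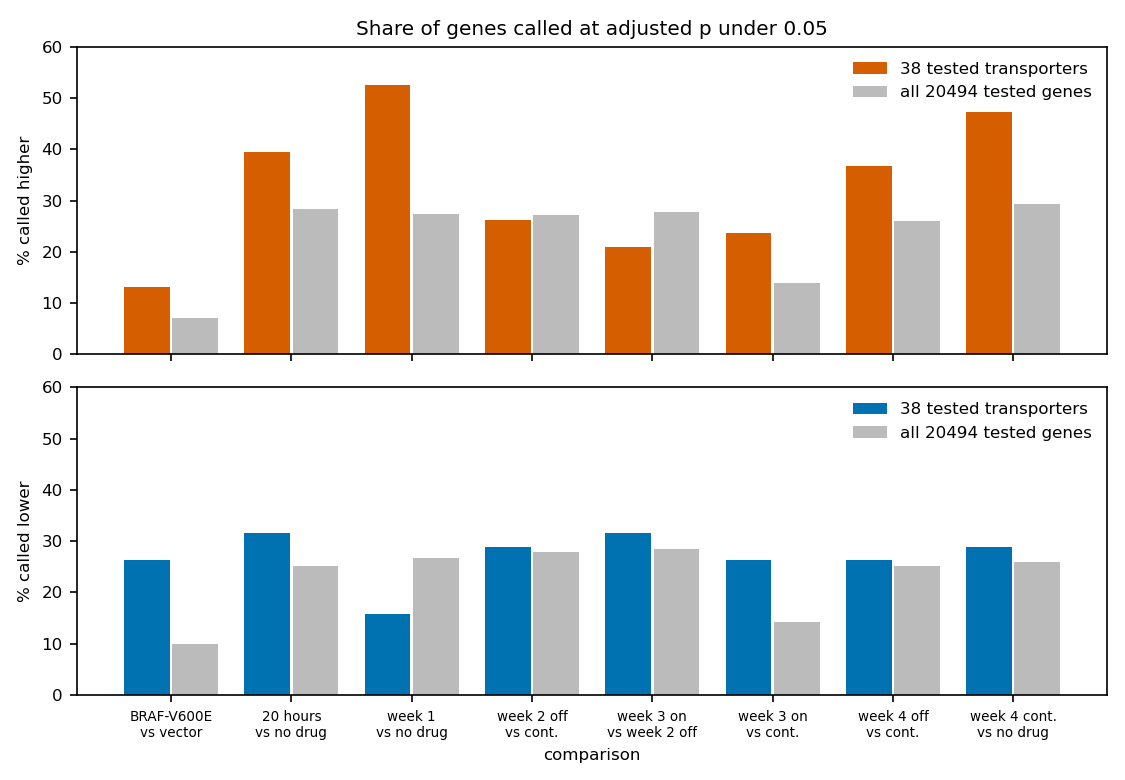
Percent of the 38 tested transporters (coloured) and of all 20494 tested genes (grey) called higher (upper panel) or lower (lower panel) at an edgeR adjusted p under 0.05 in the 8 main comparisons. At week 1 the transporters stand at 52.6% higher and 15.8% lower, against 27.5% and 26.7% of all genes.

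The heavy chain and its light chains changed on separate time courses. SLC3A2 (chr11:62856102-62888875, GRCh38, GENCODE 29), the heavy chain that brings its light chains to the membrane, rose both at 20 hours and at week 1. SLC3A2 had 478, 403 and 426 CPM at 20 hours of drug and 493, 549 and 469 CPM at week 1, against 201, 234 and 208 CPM in V600E cells without drug. Intermittent cells held SLC3A2 at 503, 524 and 406 CPM off drug at week 2, 339.7, 305 and 267 CPM back on drug at week 3 and 326, 342 and 323 CPM off drug at week 4. Continuous drug gave SLC3A2 340.0, 393 and 408 CPM at week 2, 213, 239 and 244 CPM at week 3 and 184 and 177 CPM at week 4. Its libraries on drug at 20 hours and week 1 lay above all untreated ones, and those off drug at week 4 above those of continuous drug. SLC3A2 was higher at 20 hours (log2 change 1.02 ± 0.098 SE, edgeR adjusted p = 2.41e-10) and at week 1 (1.23 ± 0.098, edgeR adjusted p = 3.59e-12). Under continuous drug it fell again, by week 3 against week 2 (log2 change -0.71 ± 0.097 SE, edgeR adjusted p = 1.68e-06). Week 4 did not pass against untreated cells in the main fit (-0.24 ± 0.11, edgeR adjusted p = 0.0589). It was called lower there with only the libraries compared (-0.23, edgeR adjusted p = 0.0111), with a replicate block (-0.27, edgeR adjusted p = 0.0338) and without the count filter (-0.23, edgeR adjusted p = 0.0409). The off-drug level was above the continuous one at week 2 (0.33 ± 0.097, edgeR adjusted p = 0.0049) and week 4 (0.87 ± 0.11, edgeR adjusted p = 1.05e-07); the week 2 call was lost without the second off-drug library (adjusted p = 0.0618). Vector cells had SLC3A2 at 234, 217 and 201 CPM. They overlapped those of V600E cells (log2 change -0.019 ± 0.097 SE, edgeR adjusted p = 0.948).

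SLC7A5 (chr16:87830023-87869488), the leucine exchanger LAT1, was highest at 20 hours of drug and then receded. SLC7A5 had 1506, 1306 and 1498 CPM at 20 hours of drug and 901, 971 and 875 CPM at week 1, against 428, 445 and 434 CPM in V600E cells without drug. Intermittent cells held SLC7A5 at 425, 448 and 429 CPM off drug at week 2, 718, 722 and 673 CPM back on drug at week 3 and 281, 264 and 308 CPM off drug at week 4. Continuous drug gave SLC7A5 846, 872 and 785 CPM at week 2, 438, 436 and 465 CPM at week 3 and 276 and 285 CPM at week 4. The 20 hour libraries lay above every week 1 library, and those above every untreated one. Its rise was 1.72 ± 0.071 (edgeR adjusted p = 6.25e-19) on the log2 scale at 20 hours, and 1.07 ± 0.07 (edgeR adjusted p = 3.74e-14) at week 1. Off drug at week 2 it stood below continuous drug (log2 change -0.94 ± 0.07 SE, edgeR adjusted p = 8.79e-13) and did not differ by test from untreated cells (-0.0067 ± 0.07, edgeR adjusted p = 0.947). It rose once more on return to drug at week 3 (log2 change 0.70 ± 0.07 SE, edgeR adjusted p = 6.23e-10), to levels above week 3 of continuous drug (0.66 ± 0.07, edgeR adjusted p = 9.65e-09). By week 4 off-drug cells (-0.62 ± 0.07, edgeR adjusted p = 8.84e-09) and continuous cells (-0.64 ± 0.08, edgeR adjusted p = 4.32e-08) were both below untreated V600E cells, and the arms did not differ by test (0.021 ± 0.078, edgeR adjusted p = 0.846). Vector cells had SLC7A5 at 392, 359 and 339 CPM. V600E cells were higher (log2 change 0.26 ± 0.07 SE, edgeR adjusted p = 0.00754), a call lost without the third vector library (adjusted p = 0.0542).

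SLC7A11 (chr4:138164097-138242349), the cystine importer xCT, fell at 20 hours and then had the largest rise at week 1 of the 10 members fixed to be given in full (SLC3A2, SLC7A5, SLC7A11, SLC7A8, SLC1A5, SLC1A4, SLC7A1, SLC38A2, SLC36A1 and SLC43A2). SLC7A11 had 40.9, 44.4 and 44.5 CPM at 20 hours of drug and 589, 523 and 559 CPM at week 1, against 67.1, 50.8 and 67.5 CPM in V600E cells without drug. Intermittent cells held SLC7A11 at 633, 623 and 813 CPM off drug at week 2, 247, 318 and 333 CPM back on drug at week 3 and 291, 279.8 and 341 CPM off drug at week 4. Continuous drug gave SLC7A11 567, 596 and 425 CPM at week 2, 407, 286 and 306 CPM at week 3 and 178 and 151 CPM at week 4. Week 1 libraries lay far above untreated ones, and the 20 hour libraries below them. The week 1 rise was 3.17 ± 0.15 (edgeR adjusted p = 1.13e-17) on the log2 scale, while 20 hours gave -0.51 ± 0.14 (edgeR adjusted p = 0.00325). SLC7A11 stayed high after drug was withdrawn: week 2 off drug was above untreated cells (log2 change 3.48 ± 0.15 SE, edgeR adjusted p = 1.65e-18), and week 4 off drug as well (2.30 ± 0.15, edgeR adjusted p = 2.00e-14). It was lower on return to drug at week 3 than off drug at week 2 (log2 change -1.20 ± 0.14 SE, edgeR adjusted p = 1.05e-08). Under continuous drug it fell in week 3 against week 2 (-0.67 ± 0.14, edgeR adjusted p = 0.000508) and in week 4 against week 3 (-1.02 ± 0.16, edgeR adjusted p = 8.36e-05), and off-drug cells were higher at week 4 (0.89 ± 0.16, edgeR adjusted p = 2.12e-05). The higher level off drug at week 2 than under continuous drug (log2 change 0.38 ± 0.14 SE, edgeR adjusted p = 0.0186) was lost without the libraries that stood apart (0.11, adjusted p = 0.367), and without the third library of the off-drug (adjusted p = 0.17) or of the continuous group (adjusted p = 0.161). Vector cells had SLC7A11 at 46.2, 45.0 and 54.6 CPM. The change with V600E did not pass (0.34 ± 0.14, edgeR adjusted p = 0.103). An antisense gene, SLC7A11-AS1, shares 865 exon bases with it and had 354 counts in all libraries together, against 259111 for SLC7A11.

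SLC7A8 (chr14:23125295-23183674), the exchanger LAT2, rose at 20 hours and did not differ by test from untreated cells at week 1. SLC7A8 had 632, 646 and 706 CPM at 20 hours of drug and 183, 190.0 and 169.8 CPM at week 1, against 177, 168 and 183 CPM in V600E cells without drug. Intermittent cells held SLC7A8 at 91.8, 91.8 and 107 CPM off drug at week 2, 63.0, 69.8 and 85.0 CPM back on drug at week 3 and 110.4, 124 and 128 CPM off drug at week 4. Continuous drug gave SLC7A8 73.2, 73.3 and 79.1 CPM at week 2, 174, 171 and 153 CPM at week 3 and 152 and 158 CPM at week 4. The 20 hour libraries stood above those of all other groups, and week 1 overlapped the untreated ones. It rose at 20 hours (log2 change 1.91 ± 0.089 SE, edgeR adjusted p = 9.75e-18), while week 1 gave 0.037 ± 0.086 (edgeR adjusted p = 0.746). Under continuous drug SLC7A8 fell at week 2 against week 1 (log2 change -1.27 ± 0.088 SE, edgeR adjusted p = 1.79e-12) and rose again at week 3 (1.14 ± 0.088, edgeR adjusted p = 3.52e-11). Cells back on drug at week 3 remained low, with less SLC7A8 than continuous cells of the same week (log2 change -1.19 ± 0.088 SE, edgeR adjusted p = 5.53e-12), where the continuous libraries did not overlap them. Off-drug cells had more SLC7A8 than continuous cells at week 2 (log2 change 0.36 ± 0.088 SE, edgeR adjusted p = 0.000775) and less at week 4 (-0.35 ± 0.096, edgeR adjusted p = 0.00261). Vector cells had SLC7A8 at 309, 301 and 286 CPM. V600E cells had less SLC7A8 than these (log2 change -0.76 ± 0.087 SE, edgeR adjusted p = 7.21e-08).

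Of the other light chains, SLC7A6 (chr16:68264516-68301823), which exchanges cationic for neutral amino acids with sodium, had 65.5, 85.7 and 77.7 CPM on drug at week 3, against 56.0, 54.1 and 63.8 CPM off drug at week 2 and 58.2, 52.0 and 54.6 CPM in week 3 of continuous drug. It was higher on drug at week 3 than off drug at week 2 (log2 change 0.39 ± 0.093 SE, edgeR adjusted p = 0.000624) and than under continuous drug (0.47 ± 0.093, edgeR adjusted p = 0.000204). SLC7A6 shares 3371 exon bases with SLC7A6OS on the opposite strand, and whether reads were counted by strand is not stated, so its counts are uncertain. SLC7A7, SLC7A9, SLC7A10 and SLC7A13 were low or almost silent (highest group mean 1.45 CPM, for SLC7A7 at 20 hours), as was SLC3A1 (highest 0.928 CPM), the heavy chain of SLC7A9.

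**Figure D3:**
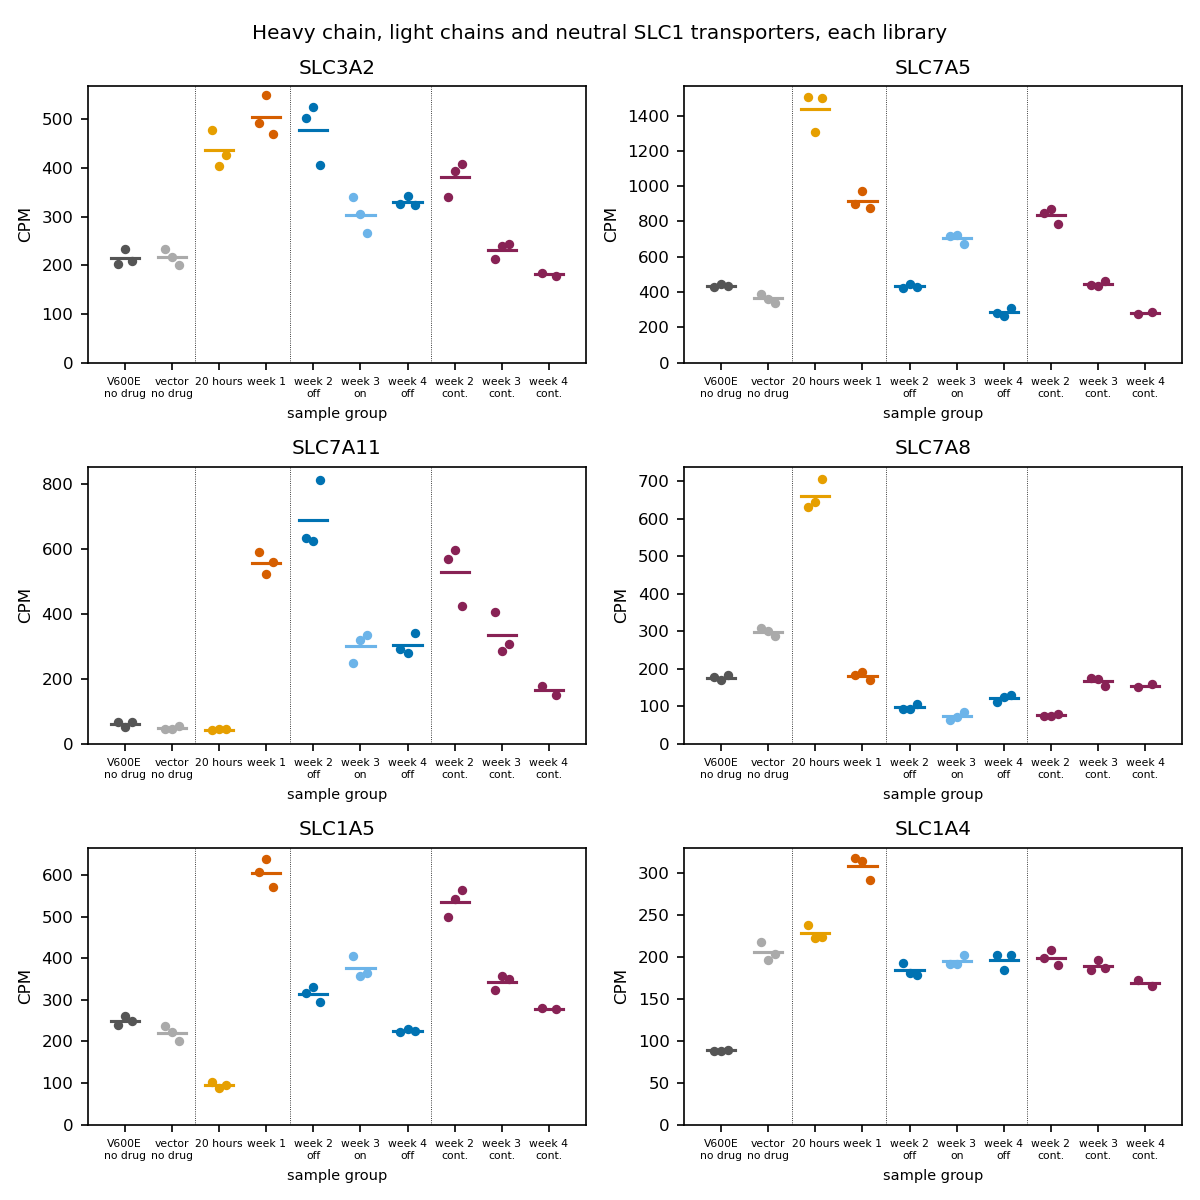
CPM of SLC3A2, SLC7A5, SLC7A11, SLC7A8, SLC1A5 and SLC1A4 in each library (points) with the group mean (bar) over the 10 sample groups; each panel has its own axis from 0. SLC7A5 and SLC7A8 peak at 20 hours, SLC7A11 and SLC1A5 are raised at week 1, and SLC1A4 lies above the untreated V600E cells in every other group.

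Both neutral amino acid exchangers of the SLC1 family rose at week 1, but they went opposite ways at 20 hours. SLC1A5 (chr19:46774883-46788594), the glutamine exchanger ASCT2, fell first and rose later. SLC1A5 had 101, 88.1 and 95.8 CPM at 20 hours of drug and 608, 638 and 572 CPM at week 1, against 239, 261 and 248 CPM in V600E cells without drug. Intermittent cells held SLC1A5 at 317, 330.4 and 296 CPM off drug at week 2, 407, 357 and 364 CPM back on drug at week 3 and 222, 230.3 and 225 CPM off drug at week 4. Continuous drug gave SLC1A5 499, 544 and 563 CPM at week 2, 323, 358 and 350.0 CPM at week 3 and 280.1 and 277 CPM at week 4. All 20 hour libraries lay below and all week 1 libraries above the untreated ones, and continuous cells lay above off-drug cells at weeks 2 and 4. SLC1A5 changed by -1.39 ± 0.075 (edgeR adjusted p = 3.64e-16) on the log2 scale at 20 hours and by 1.28 ± 0.074 (edgeR adjusted p = 1.63e-15) at week 1. Off drug it was below continuous drug at week 2 (log2 change -0.77 ± 0.073 SE, edgeR adjusted p = 2.26e-10) and week 4 (-0.30 ± 0.081, edgeR adjusted p = 0.00231). The rise on return to drug (log2 change 0.26 ± 0.073 SE, edgeR adjusted p = 0.00342) was lost without the libraries that stood apart (0.15, adjusted p = 0.075). Vector cells had SLC1A5 at 237, 222 and 200.4 CPM. They lay below the V600E libraries, but the change did not pass (log2 change 0.18 ± 0.073 SE, edgeR adjusted p = 0.0861). SLC1A5 shares 780 exon bases with AC008622.2 on the opposite strand, which had 2215 counts in all, against 276995 for SLC1A5.

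SLC1A4 (chr2:64988477-65023865), the serine and alanine exchanger ASCT1, was lowest in untreated V600E cells of all 10 groups. SLC1A4 had 238, 222 and 223 CPM at 20 hours of drug and 318, 314 and 292 CPM at week 1, against 88.0, 88.1 and 89.2 CPM in V600E cells without drug. Intermittent cells held SLC1A4 at 192, 181 and 178 CPM off drug at week 2, 192, 191 and 202 CPM back on drug at week 3 and 202, 184 and 203 CPM off drug at week 4. Continuous drug gave SLC1A4 199, 208 and 190.4 CPM at week 2, 184, 196 and 186 CPM at week 3 and 173 and 165 CPM at week 4. Every library of every other group lay above the 3 untreated V600E libraries. V600E cells had less SLC1A4 than vector cells, which had 217, 196 and 203 CPM (log2 change -1.22 ± 0.063 SE, edgeR adjusted p = 3.51e-15), the largest fall in that contrast among the members at 5 CPM or more. SLC1A4 rose at 20 hours (log2 change 1.36 ± 0.063 SE, edgeR adjusted p = 9.52e-18) and more at week 1 (1.80 ± 0.064, edgeR adjusted p = 9.54e-21; week 1 against 20 hours 0.43 ± 0.062, edgeR adjusted p = 4.51e-07). Withdrawal left it raised over untreated cells at week 2 (log2 change 1.05 ± 0.063 SE, edgeR adjusted p = 3.62e-15) and week 4 (1.15 ± 0.063, edgeR adjusted p = 6.85e-16), and the 2 arms did not differ by test at week 2 (-0.12 ± 0.062, edgeR adjusted p = 0.118) or week 3 (0.044 ± 0.062, edgeR adjusted p = 0.651). At week 4 the off-drug level was slightly higher (log2 change 0.22 ± 0.07 SE, edgeR adjusted p = 0.00957), a call lost without the second continuous library (adjusted p = 0.117).

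Among the acidic amino acid carriers SLC1A3 (chr5:36606355-36688334), the glutamate transporter EAAT1, was high on drug and low off it. It rose at week 1, and again to weeks 2 and 3 of continuous drug. SLC1A3 had 3.51, 3.92 and 3.48 CPM at 20 hours of drug and 13.1, 12.8 and 12.4 CPM at week 1, against 4.64, 4.67 and 4.62 CPM in V600E cells without drug. Intermittent cells held SLC1A3 at 4.15, 5.43 and 5.36 CPM off drug at week 2, 17.9, 18.3 and 19.7 CPM back on drug at week 3 and 5.01, 4.46 and 5.13 CPM off drug at week 4. Continuous drug gave SLC1A3 19.1, 19.0 and 19.1 CPM at week 2, 33.9, 28.4 and 29.9 CPM at week 3 and 32.3 and 38.8 CPM at week 4. Week 2 was above week 1 (log2 change 0.58 ± 0.10 SE, edgeR adjusted p = 4.19e-05) and week 3 above week 2 (0.69 ± 0.098, edgeR adjusted p = 3.09e-06), while week 4 did not pass against week 3 (0.21 ± 0.11, edgeR adjusted p = 0.26). Off drug at weeks 2 and 4 its libraries were near the untreated ones, and on drug from week 1 they lay above all of these. The change was 1.45 ± 0.11 (edgeR adjusted p = 2.04e-12) at week 1 and 2.94 ± 0.12 (edgeR adjusted p = 2.13e-19) at week 4 of continuous drug, both on the log2 scale. Off-drug cells were below continuous cells at week 2 (log2 change -1.93 ± 0.11 SE, edgeR adjusted p = 2.15e-15) and week 4 (-2.87 ± 0.12, edgeR adjusted p = 5.03e-19), and not different by test from untreated cells (0.11 ± 0.12, edgeR adjusted p = 0.468 and 0.067 ± 0.12, edgeR adjusted p = 0.671). Return to drug raised it again (log2 change 1.90 ± 0.11 SE, edgeR adjusted p = 2.97e-15), still below week 3 of continuous drug (-0.72 ± 0.097, edgeR adjusted p = 7.63e-07). Vector cells had SLC1A3 at 9.57, 7.21 and 9.12 CPM. V600E cells had less (log2 change -0.89 ± 0.12 SE, edgeR adjusted p = 8.32e-07). The small fall at 20 hours (-0.35 ± 0.13, edgeR adjusted p = 0.0226) was lost without the third 20 hour library (adjusted p = 0.075). The summed fibroblast markers had 22.0 to 26.2 CPM off drug and 1071 to 1118 CPM under continuous drug at week 2, and their part in the result was not tested. Most of this sum was the collagen gene COL1A1, with a mean of 4.43 CPM off drug and 1053 CPM under continuous drug at week 2, while the defining marker DCN had 0.0235 and 0.0987 CPM; THY1 was at 0 counts in week 1. SLC1A1, another glutamate carrier, ranged from 2.09 to 6.19 CPM over the group means, and SLC1A2 and SLC1A6 were low or almost silent.

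SLC1A7, a glutamate transporter named after its values were seen, had 0 counts off drug at week 4, against 81 counts under continuous drug at week 4 (at least 39.3-fold lower, with a floor of 3 counts over the group). A further low member named after its values were seen, the cationic carrier SLC7A14, had 0 and 38 counts in these groups (at least 18.4-fold lower off drug). It had 51 counts in all libraries together and passed the count filter through week 4 of continuous drug alone. Its calls at week 4, against off-drug cells and against untreated cells, were lost under DESeq2 (adjusted p = 0.508 and 0.506). The highest group mean of SLC1A7 was 1.57 CPM, in week 3 of continuous drug.

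The cationic amino acid carriers SLC7A1 and SLC7A2 differed in course. SLC7A1 (chr13:29509410-29595688), the main carrier of arginine and lysine in most cells, fell at 20 hours and was above untreated cells at week 1. SLC7A1 had 87.8, 86.5 and 95.2 CPM at 20 hours of drug and 284, 278 and 254 CPM at week 1, against 229, 204 and 228 CPM in V600E cells without drug. Intermittent cells held SLC7A1 at 213, 203 and 238 CPM off drug at week 2, 197, 243 and 242 CPM back on drug at week 3 and 157, 146 and 173 CPM off drug at week 4. Continuous drug gave SLC7A1 318, 317 and 249.6 CPM at week 2, 186, 159.8 and 165 CPM at week 3 and 129 and 128 CPM at week 4. The 20 hour and week 4 continuous libraries lay below the untreated ones and the week 1 libraries above them. Its changes were -1.29 ± 0.094 (edgeR adjusted p = 5.03e-13) at 20 hours, 0.30 ± 0.092 (edgeR adjusted p = 0.00603) at week 1 and -0.78 ± 0.11 (edgeR adjusted p = 1.80e-07) at week 4 of continuous drug, on the log2 scale. Off drug it was below continuous drug at week 2 (log2 change -0.44 ± 0.092 SE, edgeR adjusted p = 0.000174). It was above continuous drug at week 4 (log2 change 0.31 ± 0.10 SE, edgeR adjusted p = 0.0133), a call lost without either continuous library (adjusted p = 0.064 and 0.0801). Vector cells had SLC7A1 at 168, 159 and 162 CPM. V600E cells had more (log2 change 0.43 ± 0.092 SE, edgeR adjusted p = 0.000867).

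SLC7A2 (chr8:17497088-17570573), a carrier of arginine and lysine known from liver and macrophages, was lower in all drug-exposed groups than in untreated V600E cells. SLC7A2 had 23.9, 26.4 and 26.3 CPM at 20 hours of drug and 13.0, 13.0 and 13.6 CPM at week 1, against 53.3, 47.1 and 48.7 CPM in V600E cells without drug. Intermittent cells held SLC7A2 at 10.1, 8.11 and 12.4 CPM off drug at week 2, 8.68, 12.9 and 14.2 CPM back on drug at week 3 and 21.2, 13.7 and 20.4 CPM off drug at week 4. Continuous drug gave SLC7A2 17.6, 19.0 and 13.2 CPM at week 2, 17.1, 11.2 and 12.2 CPM at week 3 and 10.9 and 9.92 CPM at week 4. No library of a drug-exposed group reached the untreated ones, on or off drug. It fell at week 1 (log2 change -1.91 ± 0.17 SE, edgeR adjusted p = 2.38e-11) and was lower after 4 weeks of continuous drug (-2.25 ± 0.20, edgeR adjusted p = 2.78e-11). It remained below untreated cells off drug at week 2 (log2 change -2.28 ± 0.17 SE, edgeR adjusted p = 7.71e-13) and week 4 (-1.43 ± 0.16, edgeR adjusted p = 8.05e-09), with opposite differences between the arms. Off drug it was below continuous drug at week 2 (log2 change -0.70 ± 0.17 SE, edgeR adjusted p = 0.00103) and above it at week 4 (0.82 ± 0.19, edgeR adjusted p = 0.000691). SLC7A4, SLC7A14 and SLC7A3 were low; SLC7A4, named after its values were seen, had 87 counts at 20 hours, against 1 count in untreated V600E cells (ratio 98.8, 95% exact binomial counting interval 17.3 to 3947). SLC7A4 passed the count filter through the 20 hour group alone. It shares 113 exon bases with P2RX6 on the opposite strand, which had 17642 counts in all libraries together, against 102 for SLC7A4.

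The SLC38 family, sodium-coupled carriers of glutamine and other neutral amino acids, held 8 tested members, of which 5 rose and 1 fell at 20 hours, beside 28.4% and 25.2% of all tested genes, and 5 rose and 0 fell at week 1, beside 27.5% and 26.7%. SLC38A2 (chr12:46358189-46372867), SNAT2, did not pass at 20 hours or week 1, and later libraries of both arms lay above the untreated ones. SLC38A2 had 109, 118 and 109 CPM at 20 hours of drug and 119, 107 and 120.1 CPM at week 1, against 125, 116 and 125 CPM in V600E cells without drug. Intermittent cells held SLC38A2 at 181, 168 and 208 CPM off drug at week 2, 129, 150.4 and 159 CPM back on drug at week 3 and 141, 137 and 149.7 CPM off drug at week 4. Continuous drug gave SLC38A2 198, 207 and 183 CPM at week 2, 223, 187 and 201 CPM at week 3 and 199.9 and 192 CPM at week 4. The 20 hour and week 1 libraries overlapped the untreated ones, and the continuous and intermittent libraries of all 3 later weeks lay above them. SLC38A2 did not pass at 20 hours (log2 change -0.12 ± 0.085 SE, edgeR adjusted p = 0.227) or week 1 (-0.081 ± 0.085, edgeR adjusted p = 0.44). It rose between week 1 and week 2 of continuous drug (log2 change 0.77 ± 0.085 SE, edgeR adjusted p = 2.29e-08) and was above untreated cells at week 4 (0.69 ± 0.093, edgeR adjusted p = 2.06e-07). The intermittent arm was lower than the continuous one at week 3 (log2 change -0.48 ± 0.084 SE, edgeR adjusted p = 4.86e-05) and week 4 (-0.46 ± 0.093, edgeR adjusted p = 0.000117). At week 2 the arms did not differ by test (log2 change -0.078, edgeR adjusted p = 0.451). Without the libraries that stood apart, off-drug cells were called lower at week 2 (-0.21, edgeR adjusted p = 0.0138). Vector cells had SLC38A2 at 111, 107 and 120.4 CPM. The change with V600E did not pass (0.11 ± 0.085, edgeR adjusted p = 0.436).

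SLC38A1 (chr12:46183063-46270017), SNAT1, had the largest rise of a member with BRAF-V600E. It had 56.7, 47.6 and 55.2 CPM in V600E cells, against 21.1, 20.5 and 23.9 CPM in vector cells (log2 change 1.29 ± 0.11 SE, edgeR adjusted p = 1.53e-10). It fell to 25.2, 29.7 and 26.6 CPM at 20 hours, still above the vector cells, and week 1 cells had 82.4, 72.8 and 75.7 CPM. Against untreated V600E cells the change was -0.97 ± 0.11 (edgeR adjusted p = 4.68e-09) at 20 hours and 0.53 ± 0.10 (edgeR adjusted p = 5.52e-05) at week 1, on the log2 scale. SLC38A1 was on opposite sides of the untreated level at the 2 times, as SLC1A5 and SLC7A1 were.

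SLC38A4 (chr12:46764761-46832408), a carrier of neutral and cationic amino acids known from liver, appeared under drug. It had 0 counts in all 9 libraries of the vector, untreated V600E and 20 hour groups. Continuous drug gave 1.19, 1.29 and 0.822 CPM at week 2, 2.53, 2.03 and 2.88 CPM at week 3 and 5.66 and 5.16 CPM at week 4. Intermittent cells had 0.0838, 0.0357 and 0.174 CPM off drug at week 2, 0.465, 0.610 and 0.820 CPM back on drug and 0.341, 0.155 and 0.200 CPM off drug at week 4. Under continuous drug the libraries of each week lay above those of the week before, and those of both off-drug groups below all of them. At week 4 of continuous drug it had 341 counts, against 0 in untreated cells, which is at least 149-fold higher with a floor of 3 counts over the group. Off-drug cells were below continuous cells at week 4 (log2 change -4.53 ± 0.35 SE, edgeR adjusted p = 5.91e-11). At week 2 the same contrast gave -3.42 ± 0.44 (edgeR adjusted p = 4.20e-07), and -4.16 without the third off-drug library, or -4.32 without the libraries that stood apart. Return to drug gave 2.62 ± 0.47 (edgeR adjusted p = 4.28e-05), and 3.36 without that library. The summed fibroblast markers were at 1071 to 1118, 1657 to 1744 and 2228 to 2469 CPM over weeks 2, 3 and 4 of continuous drug and 2.08 to 2.27 CPM in untreated cells, and their part was not tested. COL1A1 made up most of this sum, with means of 1053, 1605 and 2178 CPM over the 3 weeks, while COL1A2, another listed collagen gene, had 25.1, 22.6 and 27.2 CPM. In a bulk sample, more cells of a kind and more RNA per cell cannot be told apart.

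SLC38A7 (chr16:58665109-58685104), which exports glutamine from lysosomes, had 92.5, 86.9 and 100.0 CPM at 20 hours, against 39.3, 39.0 and 35.6 CPM without drug (log2 change 1.29 ± 0.076 SE, edgeR adjusted p = 3.34e-15). Vector cells had 58.1, 57.5 and 53.3 CPM, and V600E cells were lower (log2 change -0.57 ± 0.076 SE, edgeR adjusted p = 1.31e-06). SLC38A9, the lysosomal arginine sensor of mTORC1, had 9.89, 9.40 and 11.8 CPM off drug and 14.4, 16.0 and 14.5 CPM under continuous drug at week 2 (log2 change -0.53 ± 0.11 SE, edgeR adjusted p = 0.000185), and rose on return to drug (0.43 ± 0.11, edgeR adjusted p = 0.00156). SLC38A7 did not pass between the arms at week 2 (log2 change -0.10 ± 0.077 SE, edgeR adjusted p = 0.273) or week 4 (-0.12 ± 0.085, edgeR adjusted p = 0.258), and SLC38A9 not at week 4 (-0.09 ± 0.12, edgeR adjusted p = 0.571). SLC38A6 and SLC38A10 rose at 20 hours and week 1, with group means from 11.9 to 22.8 CPM and from 128 to 187 CPM, but the SLC38A10 call at 20 hours was lost without the third V600E or the first 20 hour library (edgeR adjusted p = 0.065 and 0.0645). SLC38A6 shares 245 exon bases with the opposite-strand gene TRMT5. SLC38A3, SLC38A5, SLC38A8 and SLC38A11 were low.

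SLC36A1 (chr5:151437046-151492381), the lysosomal proton-coupled amino acid carrier PAT1, was higher in off-drug cells than under continuous drug. SLC36A1 had 33.2, 35.4 and 39.1 CPM at 20 hours of drug and 39.1, 40.4 and 41.8 CPM at week 1, against 32.0, 26.5 and 29.4 CPM in V600E cells without drug. Intermittent cells held SLC36A1 at 42.0, 43.1 and 52.4 CPM off drug at week 2, 32.6, 36.2 and 34.8 CPM back on drug at week 3 and 47.3, 40.4 and 47.3 CPM off drug at week 4. Continuous drug gave SLC36A1 34.0, 35.4 and 22.2 CPM at week 2, 28.1, 21.2 and 21.2 CPM at week 3 and 18.9 and 19.4 CPM at week 4. Intermittent libraries lay above the continuous ones at each of weeks 2, 3 and 4. The differences were 0.59 ± 0.13 (edgeR adjusted p = 0.0002) at week 2, 0.56 ± 0.13 (edgeR adjusted p = 0.000897) at week 3 and 1.23 ± 0.15 (edgeR adjusted p = 2.35e-08) at week 4, on the log2 scale. Week 4 of continuous drug was below untreated cells (log2 change -0.61 ± 0.15 SE, edgeR adjusted p = 0.000651), and week 1 above them (0.47 ± 0.13, edgeR adjusted p = 0.0022). The 20 hour change (log2 change 0.29 ± 0.13 SE, edgeR adjusted p = 0.0498) sat at the threshold and was lost under DESeq2 (adjusted p = 0.0911). Vector cells had SLC36A1 at 33.0, 37.0 and 36.4 CPM. The change with V600E did not pass (-0.28 ± 0.13, edgeR adjusted p = 0.145). The related SLC36A4 fell at 20 hours (-0.58 ± 0.11, edgeR adjusted p = 7.62e-05) and rose at week 1 (0.76 ± 0.11, edgeR adjusted p = 2.83e-07), and SLC36A2 and SLC36A3 were almost without counts.

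The 3 members of the SLC43 family, facilitated carriers of large neutral amino acids (SLC43A1 and SLC43A2) and of nucleobases (SLC43A3), split under drug: SLC43A2 rose and the others fell. SLC43A2 (chr17:1569267-1628886), LAT4, was the lowest of those 10 fixed members by mean CPM. SLC43A2 had 5.77, 5.08 and 5.41 CPM at 20 hours of drug and 5.78, 5.88 and 4.74 CPM at week 1, against 2.16, 2.20 and 2.12 CPM in V600E cells without drug. Intermittent cells held SLC43A2 at 5.78, 3.72 and 4.53 CPM off drug at week 2, 4.37, 3.69 and 3.02 CPM back on drug at week 3 and 4.39, 4.37 and 4.27 CPM off drug at week 4. Continuous drug gave SLC43A2 3.62, 4.23 and 4.22 CPM at week 2, 4.98, 5.21 and 4.36 CPM at week 3 and 7.97 and 7.26 CPM at week 4. Drug-exposed libraries lay above the untreated ones in all 8 groups, with the highest values at week 4 of continuous drug. SLC43A2 rose at 20 hours (log2 change 1.32 ± 0.17 SE, edgeR adjusted p = 5.97e-08) and week 1 (1.34 ± 0.16, edgeR adjusted p = 3.39e-08), and was lower off drug than under continuous drug at week 4 (-0.81 ± 0.16, edgeR adjusted p = 0.000104). Vector cells had SLC43A2 at 2.62, 2.23 and 1.80 CPM. The change with V600E did not pass (-0.048 ± 0.18, edgeR adjusted p = 0.918).

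SLC43A3 (chr11:57406954-57427580) had the largest fall of a tested member at 20 hours. SLC43A3 had 21.4, 19.2 and 19.2 CPM at 20 hours of drug and 54.8, 59.2 and 52.3 CPM at week 1, against 145, 147 and 139.8 CPM in V600E cells without drug. Intermittent cells held SLC43A3 at 61.5, 67.8 and 62.4 CPM off drug at week 2, 51.3, 46.1 and 48.3 CPM back on drug at week 3 and 94.4, 86.3 and 92.2 CPM off drug at week 4. Continuous drug gave SLC43A3 44.8, 44.9 and 44.8 CPM at week 2, 27.4, 29.7 and 31.3 CPM at week 3 and 26.9 and 24.8 CPM at week 4. Untreated libraries were above every drug-exposed one, and intermittent libraries above continuous ones of the same week. It fell at 20 hours (log2 change -2.85 ± 0.079 SE, edgeR adjusted p = 3.52e-23) and was lower at week 1 (-1.38 ± 0.073, edgeR adjusted p = 1.98e-16). Off drug it was above continuous drug at week 2 (log2 change 0.51 ± 0.073 SE, edgeR adjusted p = 6.19e-07) and week 4 (1.81 ± 0.087, edgeR adjusted p = 3.56e-17), and on drug at week 3 too (0.72 ± 0.074, edgeR adjusted p = 6.08e-09). SLC43A1, LAT3, had 5.88 and 6.34 CPM at week 4 of continuous drug, against 19.1, 20.3 and 18.5 CPM in untreated cells (log2 change -1.66 ± 0.14 SE, edgeR adjusted p = 1.05e-11), and 12.9, 14.0 and 14.0 CPM at week 1 (-0.50 ± 0.11, edgeR adjusted p = 0.000382).

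The SLC6 family of sodium- and chloride-coupled carriers held 9 tested members, among them SLC6A15 and SLC6A17, carriers of neutral amino acids best known from neurons. After 4 weeks of continuous drug 7 of the 9 were higher and 2 lower than in untreated cells, beside 29.3% and 26% of all tested genes, and 5 of the 9 were low in counts. SLC6A15 (chr12:84859488-84913615) was lower with each week of continuous drug and higher off drug. SLC6A15 had 62.7, 70.5 and 64.2 CPM at 20 hours of drug and 44.8, 41.8 and 41.9 CPM at week 1, against 66.0, 58.8 and 58.6 CPM in V600E cells without drug. Intermittent cells held SLC6A15 at 109.8, 98.9 and 105 CPM off drug at week 2, 16.2, 18.7 and 23.1 CPM back on drug at week 3 and 51.2, 53.8 and 53.7 CPM off drug at week 4. Continuous drug gave SLC6A15 21.8, 18.9 and 19.0 CPM at week 2, 10.9, 10.4 and 10.4 CPM at week 3 and 7.20 and 6.84 CPM at week 4. Off-drug libraries lay well above continuous ones at weeks 2 and 4, and those of week 2 above the untreated cells. The differences off drug over continuous drug were 2.39 ± 0.093 (edgeR adjusted p = 1.24e-19) at week 2 and 2.91 ± 0.12 (edgeR adjusted p = 4.66e-19) at week 4, on the log2 scale. It fell on return to drug (log2 change -2.44 ± 0.093 SE, edgeR adjusted p = 8.03e-20), and 4 weeks of continuous drug left it below untreated cells (-3.12 ± 0.12, edgeR adjusted p = 5.12e-20). At 20 hours it did not pass (log2 change 0.11 ± 0.087 SE, edgeR adjusted p = 0.317), and at week 1 it was lower (-0.51 ± 0.088, edgeR adjusted p = 9.67e-06). Vector cells had 48.7, 47.0 and 52.6 CPM, below V600E cells (log2 change 0.31 ± 0.088 SE, edgeR adjusted p = 0.013), a call lost without the second vector or the first V600E library (adjusted p = 0.0665 and 0.0881).

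SLC6A17 (chr1:110150486-110202202) also stood higher off drug than under continuous drug, but in both arms it was above untreated cells from week 2. SLC6A17 had 4.05, 3.53 and 4.15 CPM at 20 hours of drug and 9.25, 10.5 and 9.74 CPM at week 1, against 10.7, 10.7 and 10.4 CPM in V600E cells without drug. Intermittent cells held SLC6A17 at 51.1, 54.3 and 49.1 CPM off drug at week 2, 26.0, 25.9 and 29.9 CPM back on drug at week 3 and 43.9, 49.2 and 37.4 CPM off drug at week 4. Continuous drug gave SLC6A17 32.2, 33.4 and 26.2 CPM at week 2, 25.5, 21.8 and 22.5 CPM at week 3 and 20.7 and 22.9 CPM at week 4. The groups off drug at weeks 2 and 4 held its highest libraries. SLC6A17 was lower at 20 hours (log2 change -1.43 ± 0.12 SE, edgeR adjusted p = 2.68e-11) and higher at week 4 of continuous drug (1.04 ± 0.11, edgeR adjusted p = 3.63e-09), both against untreated cells. Off drug it exceeded continuous drug at week 2 (log2 change 0.75 ± 0.097 SE, edgeR adjusted p = 9.16e-08) and week 4 (1.00 ± 0.11, edgeR adjusted p = 7.61e-09), and it fell on return to drug (-0.92 ± 0.097, edgeR adjusted p = 1.74e-09). V600E cells had more than vector cells, which had 6.56, 7.35 and 6.36 CPM (log2 change 0.65 ± 0.11 SE, edgeR adjusted p = 8.64e-05).

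SLC6A6 (chr3:14402576-14489349), the taurine transporter, and SLC6A8 (chrX:153688099-153696593), the creatine transporter, which belong to the family but carry no protein amino acid, moved oppositely at 20 hours and week 1. SLC6A6 had 45.2, 46.5 and 45.8 CPM at 20 hours of drug and 159, 150.4 and 155 CPM at week 1, against 81.1, 72.8 and 75.5 CPM in V600E cells without drug. SLC6A8 had 389.9, 354 and 387 CPM at 20 hours of drug and 96.8, 100.4 and 89.4 CPM at week 1, against 137, 144 and 141 CPM in V600E cells without drug. SLC6A6 was below the untreated libraries at 20 hours and above them at week 1, and SLC6A8 was the reverse. For SLC6A6 the changes were -0.74 ± 0.081 (edgeR adjusted p = 3.74e-09) at 20 hours and 1.02 ± 0.079 (edgeR adjusted p = 1.98e-12) at week 1, on the log2 scale. For SLC6A8 they were 1.42 ± 0.076 (edgeR adjusted p = 2.75e-16) and -0.56 ± 0.075 (edgeR adjusted p = 1.78e-07). SLC6A6 had 163, 176 and 188 CPM on drug at week 3, against 248, 225 and 230.0 CPM under continuous drug (log2 change -0.42 ± 0.078 SE, edgeR adjusted p = 9.71e-05), and SLC6A8 74.7, 64.9 and 76.1 CPM, against 91.3, 106 and 97.3 CPM (-0.45 ± 0.075, edgeR adjusted p = 2.41e-05). V600E cells had less of both than vector cells (log2 change -0.49 ± 0.079 SE, edgeR adjusted p = 2.50e-05 for SLC6A6 and -0.40 ± 0.075, edgeR adjusted p = 0.000194 for SLC6A8). SLC6A16, an orphan member named after its values were seen, was low (highest group mean 4.98 CPM, at 20 hours) and rose there (log2 change 2.78 ± 0.27 SE, edgeR adjusted p = 3.55e-10). The other low members of the family, such as the betaine carrier SLC6A12 and the glycine carrier SLC6A9, reached at most 1.46 CPM in a group.

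**Figure D4:**
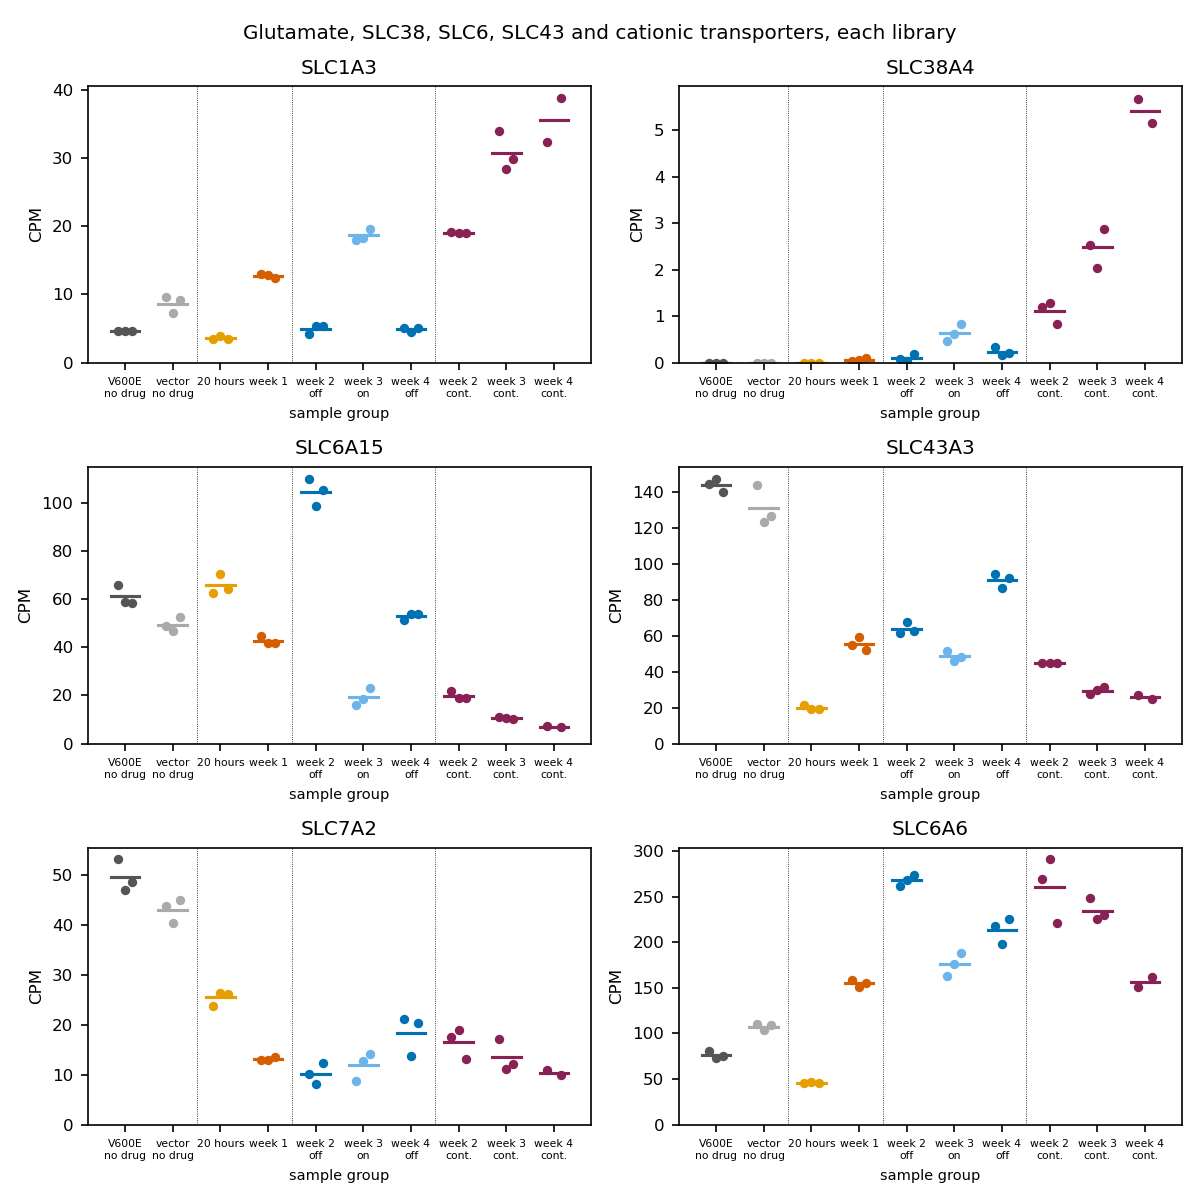
CPM of SLC1A3, SLC38A4, SLC6A15, SLC43A3, SLC7A2 and SLC6A6 in each library (points) with the group mean (bar) over the 10 sample groups; each panel has its own axis from 0. SLC1A3 and SLC38A4 are high under continuous drug and low off drug, and SLC6A15 and SLC43A3 are the reverse.

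For 21 of the 27 transporters that reach 5 CPM, the change over the second 7 days of drug differed from that over the first. The second change is week 3 on drug against week 2 off drug, the first is week 1 against untreated V600E cells, and their difference was tested in the same fit. The second change was lower than the first for 17 of the 27 and higher for 4, beside 25% and 23.3% of all tested genes. These shares include genes below 5 CPM, so they are not matched in level to the 27 members. Among the tested members below 5 CPM only SLC6A16 was called, with a higher second change. SLC7A11 changed by -1.20 in the second exposure and by 3.17 in the first (difference -4.38 ± 0.20, edgeR adjusted p = 2.18e-17). SLC3A2 changed by -0.65 in the second and 1.23 in the first (difference -1.88 ± 0.14, edgeR adjusted p = 8.87e-13), and SLC1A4 by 0.084 and 1.80 (difference -1.71 ± 0.088, edgeR adjusted p = 2.65e-16). All 3 were higher off drug at week 2, where the second exposure began, than in untreated cells. SLC7A5, which did not differ by test from untreated cells at week 2 off drug, rose in both exposures, by 0.70 in the second and 1.07 in the first (difference -0.37 ± 0.099, edgeR adjusted p = 0.0023). SLC7A2 differed the other way (difference 2.14 ± 0.24, edgeR adjusted p = 8.98e-09), with a fall in the first exposure and no call in the second (0.22). Its second change was called without the libraries that stood apart (0.58, edgeR adjusted p = 0.000957) and without the first week 3 on-drug library (0.41, edgeR adjusted p = 0.0485).

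**Figure D5:**
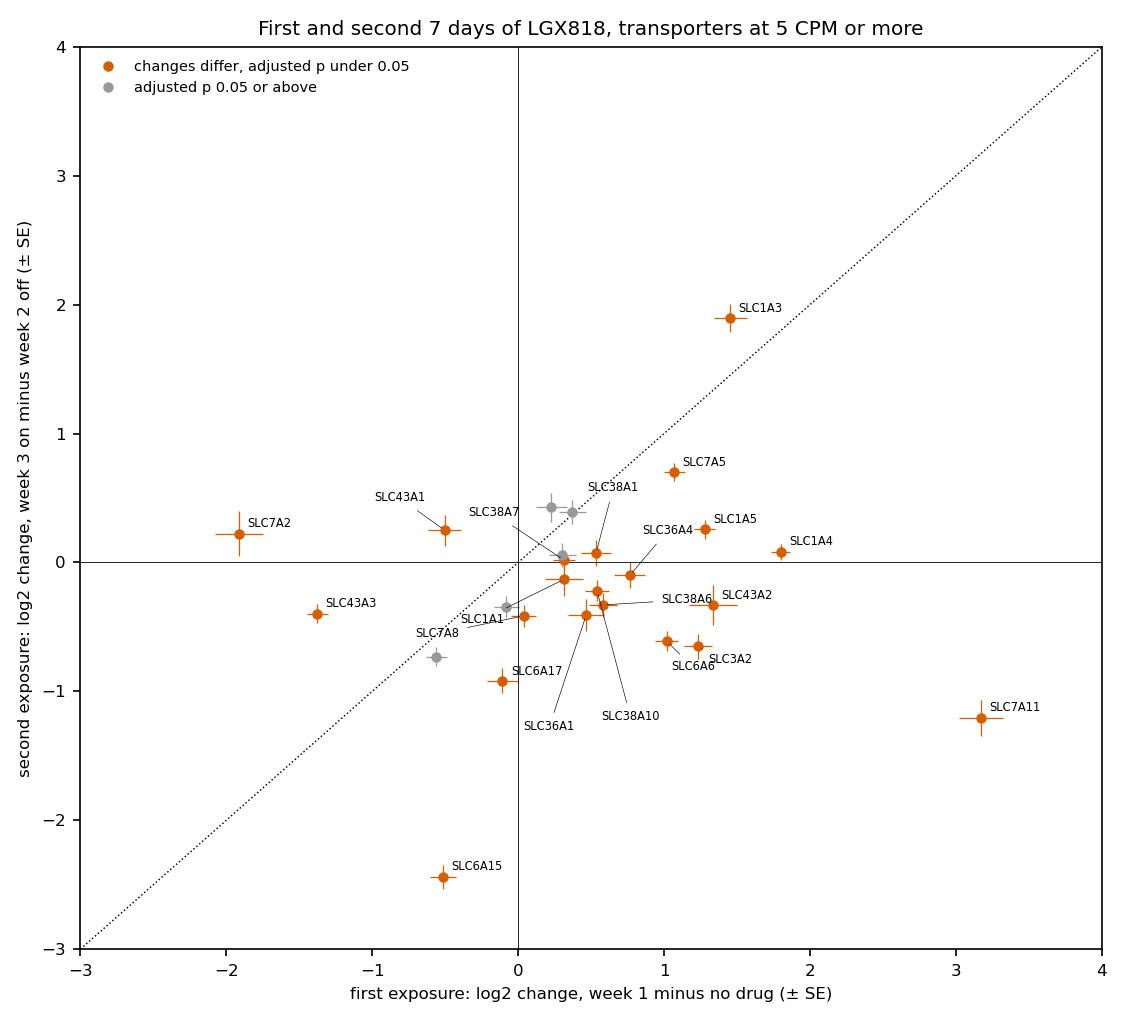
Log2 change ± SE of 26 transporters in the first 7 days of LGX818 (x axis, week 1 minus no drug) and in the second (y axis, week 3 on drug minus week 2 off drug); orange marks members whose changes differ at an edgeR adjusted p under 0.05 and the dotted line marks equal changes. SLC1A3 and SLC7A5 are raised in both, and SLC7A11 lies at 3.17 in the first and -1.20 in the second.

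Genes around the transporters were read from 3 lists, which hold no member. The amino acid response list holds 33 known targets or partners of ATF4, such as ASNS, TRIB3 and cytosolic tRNA synthetases, and all were tested. At week 1 against untreated cells it had 30 higher and 1 lower (median log2 change 0.96), beside 27.5% and 26.7% of all tested genes (median 0). NUPR1, a stress-induced chromatin protein, rose by 4.96 ± 0.17 (edgeR adjusted p = 3.64e-21) and the transcription factor ATF3 by 4.04 ± 0.10 (edgeR adjusted p = 2.09e-24), while the lipoprotein receptor VLDLR fell (-0.52 ± 0.084, edgeR adjusted p = 4.09e-06). At 20 hours the list had 10 higher and 16 lower (median log2 change -0.17), beside 28.4% and 25.2% of all tested genes (median 0.057). NUPR1 rose at this time (3.40 ± 0.17, edgeR adjusted p = 3.93e-17), while TRIB3, a pseudokinase, fell (-2.14 ± 0.12, edgeR adjusted p = 3.39e-16). With BRAF-V600E against vector cells there were 20 higher and 1 lower (median log2 change 0.31), beside 7.04% and 9.92% of all tested genes (median -0.0014). Here TRIB3 gave 1.22 ± 0.11 (edgeR adjusted p = 5.97e-10) and ASNS, asparagine synthetase, 0.84 ± 0.09 (edgeR adjusted p = 2.48e-08). Off drug against continuous drug it had 5 higher and 16 lower (median log2 change -0.17) at week 2, beside 27.3% and 27.9% of all tested genes (median -0.044). The same contrast at week 4 gave 6 higher and 14 lower (median log2 change -0.12), beside 26.1% and 25.1% of all tested genes (median -0.0055). NUPR1 was lower off drug at both times (-5.28 ± 0.19, edgeR adjusted p = 1.48e-20 at week 2 and -5.43 ± 0.19, edgeR adjusted p = 1.23e-20 at week 4). Higher off drug were the tRNA synthetase WARS at week 2 (1.45 ± 0.078, edgeR adjusted p = 3.69e-16) and TRIB3 at week 4 (1.02 ± 0.12, edgeR adjusted p = 2.86e-08). Return to drug at week 3 gave 16 higher and 6 lower (median log2 change 0.19), beside 27.8% and 28.5% of all tested genes (median 0.015). Week 3 on drug against continuous drug gave 20 higher and 3 lower (median log2 change 0.27), beside 14% and 14.3% of all tested genes (median -0.004). In week 4 of continuous drug against untreated cells there were 18 higher and 6 lower (median log2 change 0.23), beside 29.3% and 26% of all tested genes (median 0.029).

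The mTORC1 sensing list holds 34 genes of the Rag, GATOR, TSC and mTORC1 complexes and their amino acid sensors, all tested, and the enzyme list holds 17 enzymes that use the carried amino acids, of which 16 were tested. At 20 hours the mTORC1 list had 18 higher and 5 lower (median log2 change 0.34) and the enzyme list 4 higher and 9 lower (median log2 change -0.24), beside 28.4% and 25.2% of all tested genes (median 0.057). SESN3, a sestrin, rose at 20 hours (1.22 ± 0.12, edgeR adjusted p = 8.85e-10) and fell at week 1 (-0.89 ± 0.12, edgeR adjusted p = 3.86e-07). At week 1 the mTORC1 list had 10 higher and 10 lower (median log2 change 0.042) and the enzyme list 7 higher and 6 lower (median log2 change 0.14), beside 27.5% and 26.7% of all tested genes (median 0). RRAGD, a Rag GTPase, fell at week 1 (-1.91 ± 0.093, edgeR adjusted p = 2.71e-17). GCLM, the modifier subunit of the glutathione-synthesis enzyme that uses cysteine, rose at week 1 (2.90 ± 0.084, edgeR adjusted p = 5.53e-23), as did PYCR1, which makes proline (1.76 ± 0.10, edgeR adjusted p = 2.82e-15). Off drug against continuous drug at week 2, the mTORC1 list had 12 higher and 8 lower (median log2 change 0.12) and the enzyme list 7 higher and 6 lower (median log2 change 0.082), beside 27.3% and 27.9% of all tested genes (median -0.044). Week 4 of this contrast gave 8 higher and 7 lower (median log2 change -0.026) in the mTORC1 list and 9 higher and 2 lower (median log2 change 0.26) in the enzyme list, beside 26.1% and 25.1% of all tested genes (median -0.0055). RRAGD was higher off drug at week 2 (2.11 ± 0.099, edgeR adjusted p = 1.29e-17) and week 4 (1.54 ± 0.11, edgeR adjusted p = 4.59e-13), and GLUL, glutamine synthetase, was higher off drug at week 2 (2.07 ± 0.09, edgeR adjusted p = 2.11e-18).

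On return to drug at week 3 the mTORC1 list had 7 higher and 13 lower (median log2 change -0.14) and the enzyme list 5 higher and 7 lower (median log2 change -0.086), beside 27.8% and 28.5% of all tested genes (median 0.015). GLUL was lower in this contrast (-2.62 ± 0.092, edgeR adjusted p = 1.35e-20). Week 3 on drug against continuous drug gave 4 higher and 2 lower (median log2 change -0.053) in the mTORC1 list and 5 higher and 2 lower (median log2 change 0.17) in the enzyme list, beside 14% and 14.3% of all tested genes (median -0.004). BRAF-V600E against vector cells gave 2 higher and 3 lower (median log2 change -0.085) in the mTORC1 list and 3 higher and 1 lower (median log2 change -0.0056) in the enzyme list, beside 7.04% and 9.92% of all tested genes (median -0.0014). For week 4 of continuous drug against untreated cells the mTORC1 list had 3 higher and 10 lower (median log2 change -0.091) and the enzyme list 5 higher and 5 lower (median log2 change -0.0054), beside 29.3% and 26% of all tested genes (median 0.029). The mTORC1 counts at week 1 were near the shares of all genes.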

How the data were processed

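RNA counts per gene were deposited as a raw table, made by the authors with HISAT2 2.0.3 on GRCh38, HTSeq 0.6.1, Trimmomatic 0.32 and SAMtools 0.1.18, per the submitters' processing notes; the annotation release and strand setting are not given in the sources used here. Totals were 22934039 to 35804978 counts per library. Genes were filtered with filterByExpr, TMM-scaled and tested with the quasi-likelihood test of edgeR 4.0.16 (R 4.3.3) in 1 fit over all 29 libraries, with Benjamini-Hochberg adjustment over 20494 genes; the method was tested on simulated data. DESeq2 1.42.0, RLE factors, no filter, compared libraries alone, a replicate block and leaving out libraries were alternatives. Counting intervals and floors cover counting error only.

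Members and lists were chosen with earlier results of these data known. Fixed to be given in every library were 10 members (listed with SLC7A11); others were also given where shown, and named beside them were up to 5 called rises and falls per main comparison (at least 5 CPM in 1 group, libraries not overlapping) and up to 2 genes per list and direction. Positions and exon lengths are from GENCODE 29, and promoters from RefSeq. Results for some genes are not reported here.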

Additional observations from a re-analysis of the deposited data

Results flagged for a closer look

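The response to 7 days of LGX818 on return (week 3 on drug against week 2 off drug) was set against the first (week 1 against untreated V600E cells) within 1 edgeR fit, and each value below is the second log2 change minus the first with its SE, listed because that difference had an adjusted p under 0.05 over all 20494 genes; the 27 members that reach 5 CPM were considered. Background rates for this test are 25% of genes with a lower and 23.3% with a higher second change, over all tested genes and not only those that reach 5 CPM. The lowest value was that of the cystine importer SLC7A11 (-4.38 ± 0.20), followed by the neuronal carrier SLC6A15 (-1.92 ± 0.13), whose second change was -2.44 and first -0.51. The heavy chain SLC3A2 had -1.88 ± 0.14, the serine exchanger SLC1A4 -1.71 ± 0.088, the leucine carrier SLC43A2 -1.67 ± 0.23 and the taurine transporter SLC6A6 -1.63 ± 0.11. The second change was also lower for the glutamine exchanger SLC1A5 (-1.02 ± 0.10), SLC38A6 (-0.91 ± 0.13), the lysosomal carrier SLC36A1 (-0.88 ± 0.18), SLC36A4 (-0.86 ± 0.15), SLC6A17 (-0.81 ± 0.15) and SLC38A10 (-0.76 ± 0.11). SLC7A8 had -0.45 ± 0.12 and SLC7A5 -0.37 ± 0.099, both light chains of SLC3A2. The values of SLC38A1 (-0.46 ± 0.14), SLC1A1 (-0.45 ± 0.19), SLC38A7 (-0.30 ± 0.11) and SLC1A3 (0.44 ± 0.16) lost their call under at least 1 of the alternative settings. The second change was the higher of the 2 for SLC1A3, SLC43A1 (0.75 ± 0.17), SLC43A3 (0.98 ± 0.10) and SLC7A2 (2.14 ± 0.24), and among the members below 5 CPM for SLC6A16 (1.20 ± 0.46, edgeR adjusted p = 0.0301), a call lost under several alternatives. The exposures differ in starting state, in time in culture and in what the cells had met before, and these cannot be told apart in this design.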

How the results depend on the processing

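None of the member values tested in 8 main comparisons and the contrast of exposures changed sign with a call under the alternatives. Of 342 such values, calls changed for 10 with RLE factors, 16 without the count filter, 28 without the 4 libraries that stood apart (chosen after seeing the data) and 63 in at least 1 fit that left out a library, and for 13 of 337 with DESeq2 and 19 of 284 with only the libraries compared. The replicate numbers did not pair libraries (126 same-number pairs, median correlation of deviations -0.0010, 3 over 0.1; 12 of 29 libraries closest to their own number), and a replicate block changed 7 of 342 calls. Scaling moved the median of all genes by less than 0.1 (log2).

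Counts moved as follows, and the causes were not tested. For V600E against vector cells, members higher numbered 5 but 8 with only the libraries compared. In the same contrast the amino acid response list had 1 lower, 2 without the libraries that stood apart and 0 to 1 leaving out a library. The mTORC1 list there had 2 higher, 0 without the count filter and 0 to 3 leaving out a library, and 3 lower, 5 without the libraries that stood apart. The enzyme list had 1 lower, 2 with DESeq2, 2 without the libraries that stood apart and 1 to 2 leaving out a library. For week 3 on drug against continuous drug, the mTORC1 list had 4 higher, 2 with only the libraries compared, and 2 lower, 4 without the libraries that stood apart. The enzyme list there had 5 higher, 3 without the count filter, 3 with only the libraries compared and 5 to 8 leaving out a library. For week 4 off drug against continuous drug, the mTORC1 list had 8 higher, 5 to 11 leaving out a library, and the enzyme list 2 lower, 1 without the count filter and 1 to 2 leaving out a library.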
